A study of Homo sapiens with 6 samples.

Results

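The 9 genes described here carry peptides to the cell surface on MHC class I: the heavy chains HLA-B and HLA-C, the light chain B2M, the peptide transporter genes TAP1 and TAP2, the loading factor TAPBP, the transactivator NLRC5, and the immunoproteasome subunits PSMB8 and PSMB9. They were taken by gene symbol from a deposited table of read counts that lists 19672 genes, and all 9 were found and passed the low-count filter that left 13299 genes for testing. The RNA came from SW620, an established human colorectal cancer line, with lentiviral shRNA constructs maintained under puromycin. The 6 libraries form 3 groups of 2: the DKC1 knockdown line C6, the DKC1 knockdown line C3, and cells with a scrambled shRNA that targets no gene. DKC1 encodes dyskerin, the pseudouridine synthase of H/ACA ribonucleoproteins. The sources used here do not say which of the DKC1 shRNAs each line carries, each knockdown line is a single stable line, and every group carries a vector and the drug selection. The library titles speak of biological replicates, and nothing says whether these were separate cultures, so p-values measure the spread between these libraries, which may be technical. All 6 carry the same batch tag.

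Class I molecules show fragments of the cell's own proteins to cytotoxic T cells. The proteasome cuts the proteins, and its inducible catalytic subunits, PSMB8 and PSMB9 among them, replace standard ones and change which peptides are made. TAP1 and TAP2 pump the peptides into the endoplasmic reticulum, where tapasin, the product of TAPBP, holds an empty heavy chain with its B2M light chain beside the transporter until a peptide binds. NLRC5 is a coactivator that docks on proteins bound to a conserved block of class I promoters and raises transcription of the heavy chains, B2M, TAP1 and PSMB9, and interferon-gamma and NF-kB signals raise many of the same genes.

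Total counts per library lay between 26077966 and 31021000, so that 3 counts corresponded to 0.0968 to 0.114 CPM (counts scaled to a common library size, here after TMM scaling), a floor that covers counting error only. DKC1 stood at 70.3 and 67.1 CPM in C6, 144 and 149 CPM in C3, and 319.7 and 315 CPM in scramble. The genotype field of C3 replicate 1 names it a control while its title names the knockdown, and its DKC1 level was close to that of C3 replicate 2. KRT8 was the most abundant of 9 epithelial markers, averaging 4315 CPM in C6, 3543 CPM in C3 and 4590 CPM in scramble. CDX2 averaged 4.18 CPM in C6, 2.24 CPM in C3 and 2.60 CPM in scramble, and LGALS4 0.404, 0 and 0.483 CPM. CDH1 was at 81.1% of scramble in C6 and 25.8% in C3, VIL1 at 47.2% and 127%, and CLDN4 at 279% and 112%. Of 10 leukocyte markers, 5 were at 0 in every library (PTPRC and CD3E among them), and all 10 together summed to 0.266 and 0.288 CPM in C6, 0.549 and 0.285 CPM in C3, and 0.483 and 0.149 CPM in scramble. Against scramble, 3 of 9 epithelial markers rose and 3 fell in C6, and 1 rose and 6 fell in C3, where over all genes 23.8% rose and 22.8% fell in C6 and 12.4% rose and 11.9% fell in C3. Of 10 stromal and endothelial markers, 4 were at 0 in every library (COL1A2, COL3A1, DCN and CDH5), and all 10 together summed to 21.0 and 21.8 CPM in C6, 33.7 and 38.1 CPM in C3, and 30.4 and 28.6 CPM in scramble. Of the 5 tested, 4 fell in C6, and 1 rose (LUM, 0.59, adjusted p = 0.00122 by edgeR) and 1 fell (VWF, −0.85) in C3. The 4 became 1 without C6 replicate 1 or scramble replicate 1 and 2 with DESeq2 or without scramble replicate 2, and VWF was not called without C3 replicate 2. The part of these shifts in the results on antigen presentation was not tested. In bulk RNA, fewer cells expressing a gene and less RNA per cell cannot be told apart.

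NLRC5 was low in both knockdown lines, and lowest in C3. C3 also had 41.8% of the scramble level of HLA-B, 44.7% of that of PSMB8 and 40.3% of that of PSMB9, while C6 had between 91.8% and 117% of these 3 genes. HLA-C, B2M, TAP1 and TAP2 stood between 78.7% and 117% of scramble in both lines, and TAPBP was at 155% in C6. Calls rest on the quasi-likelihood test of edgeR, with p-values adjusted by Benjamini-Hochberg over all genes tested. In C3, 7 of the 9 genes were called, against 24.3% of all genes, with 5 that fell (NLRC5, HLA-B, PSMB8, PSMB9 and TAP1; 11.9% of all genes) and 2 that rose (B2M and TAP2; 12.4%). In C6, 3 of the 9 were called, against 46.7% of all genes, with NLRC5 lower (22.8% of all genes) and B2M and TAPBP higher (23.8%). Both comparisons use the same scramble libraries.

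**Figure D1:**
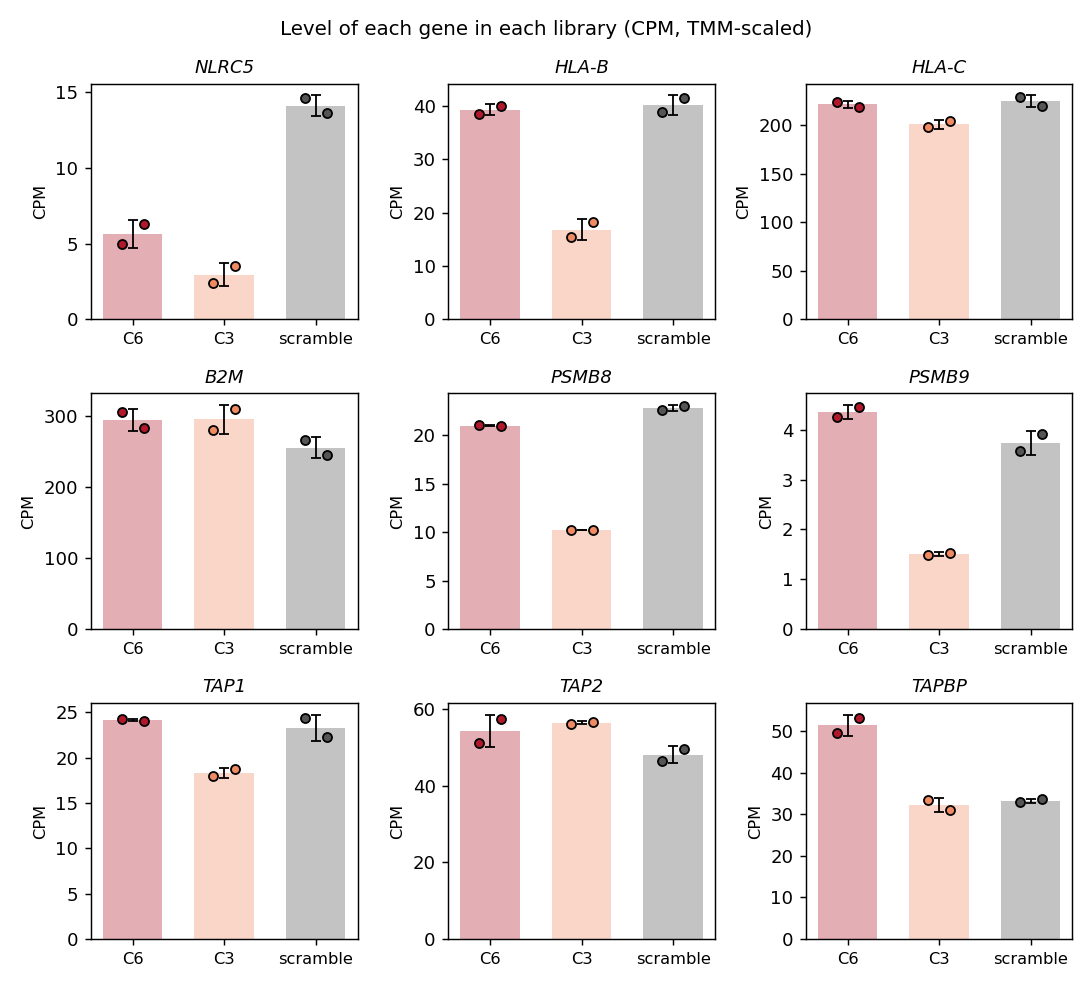
CPM of each of the 9 genes in each library of C6, C3 and scramble (points), with the mean (bar, axis from 0) and SD (error bar, n = 2 each). NLRC5 is lower in all 4 knockdown libraries than in scramble, and HLA-B, PSMB8 and PSMB9 are lower in the C3 libraries than in any C6 or scramble library.

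NLRC5 (GRCh38 chromosome 16, 56989557 to 57083520) had 131 and 175 counts in C6, 75 and 98 in C3, and 393 and 365 in scramble. On the CPM scale these are 4.98 and 6.29 in C6, 2.42 and 3.49 in C3, and 14.6 and 13.6 in scramble. The 3 groups did not overlap, with C3 lowest and scramble highest. All 4 knockdown libraries lay below both scramble libraries for 15.2% of all genes. How many of all genes keep C3 or C6 apart from the other groups, here or below, was not counted. Its mean was 40.0% of scramble in C6 and 21.0% in C3. The log2 fold change was −1.32 ± 0.18 (SE of the fit) in C6 and −2.26 ± 0.19 in C3, with adjusted p-values of 2.05e-05 and 5.28e-07 by edgeR's quasi-likelihood test. C6 stood above C3 by 0.94 ± 0.20 on the log2 scale (adjusted p = 0.0011, same test). DKC1 itself was lower in C6 than in C3, and the shRNA, the degree of knockdown and the line cannot be told apart. NLRC5 was 1 of the genes that fell in both lines, 4.59% of all genes, and by fold change it ranked 177 from the lowest of 13299 genes in C3 and 636th in C6.

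HLA-B and HLA-C encode class I heavy chains, the polymorphic subunits that bind the peptide. HLA-B (chromosome 6, 31353875 to 31357179) was at 38.6 and 40.0 CPM in C6, 15.5 and 18.2 CPM in C3, and 38.9 and 41.6 CPM in scramble. Both C3 libraries lay below all others, and C6 overlapped scramble. C3 differed from scramble by −1.26 ± 0.10 on the log2 scale (adjusted p = 2.21e-07, edgeR) and C6 by −0.03 ± 0.09 (adjusted p = 0.79). HLA-C (31268749 to 31272092) was at 224 and 219 CPM in C6, 198 and 204 CPM in C3, and 229.7 and 221 CPM in scramble. The C3 libraries were again the lowest, but the difference was small, with a log2 fold change of −0.16 ± 0.06 and an adjusted p of 0.0511 by edgeR's test. That value was called in 5 of 14 alternatives, which were RLE scaling (adjusted p = 0.0476), upper-quartile scaling (0.0233), a filter at 1 CPM (0.0432), the shift of neighbouring genes removed (0.0278) and only C3 and scramble fitted (0.0399). In C6 its log2 fold change was −0.02 ± 0.06 (adjusted p = 0.784). The level of HLA-B per base of transcript was 17.1% and 18.1% of that of HLA-C in C6, 7.75% and 8.83% in C3, and 16.8% and 18.7% in scramble.

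Heavy chain genes are near-identical in places, and the sources used here do not say how reads were divided among them. Of the 50-base windows of the HLA-B transcript in GENCODE release 29, 2.54% occur in a transcript of another gene, and 6.79% of those of HLA-C do. None of the 1398 windows of 150 bases (the read length in the labels) of HLA-B and none of the 1387 of HLA-C does. These are reference sequences, and how far the alleles of SW620 depart from them was not tested. HLA-G, a further class I heavy chain, was listed with 173 counts and 0 in C6, 0 and 0 in C3, and 195 and 0 in scramble, so replicates of a group disagreed on whether it was detected at all. No fold is given for HLA-G.

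The sequence before the start of each gene is shown for the heavy chains and B2M because class I promoters share a block on which NLRC5 is known to act, with an X2 box (TGACG) and an inverted CCAAT box (ATTGG) at a fixed spacing. RefSeq sequences (GRCh38.p14) of the 250 bases before the start were matched for 8 of the 9 genes, all but NLRC5. Searched on both strands, TGACG followed after 18 to 22 bases by ATTGG was found before HLA-B, HLA-C and B2M, and in 0.248% of all 35116 promoter windows of this length. A core of the interferon-stimulated response element, GAAA repeated after any 2 bases, was found before B2M, TAP1, TAP2 and TAPBP and in 3.02% of windows. Only this exact pattern was searched, so genes without a match, HLA-B and HLA-C among them, may still hold a variant of the element. The NF-kB consensus was found before HLA-B, HLA-C, B2M, TAP1 and TAPBP and in 9.96% of windows. TAP1 has 2 annotated starts, and both motifs were found before start 1 and neither before start 2. Capitals below mark these matches, which overlap each other in places. HLA-B lies on the minus strand (chr6:31357180-31357429), as does HLA-C (chr6:31272093-31272342), and B2M on the plus strand (chr15:44711267-44711516).
HLA-B: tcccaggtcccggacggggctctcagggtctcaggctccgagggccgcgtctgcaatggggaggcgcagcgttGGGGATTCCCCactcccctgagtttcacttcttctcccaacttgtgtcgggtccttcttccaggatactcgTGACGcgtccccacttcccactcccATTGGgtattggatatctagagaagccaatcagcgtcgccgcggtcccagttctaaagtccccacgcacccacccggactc
HLA-C: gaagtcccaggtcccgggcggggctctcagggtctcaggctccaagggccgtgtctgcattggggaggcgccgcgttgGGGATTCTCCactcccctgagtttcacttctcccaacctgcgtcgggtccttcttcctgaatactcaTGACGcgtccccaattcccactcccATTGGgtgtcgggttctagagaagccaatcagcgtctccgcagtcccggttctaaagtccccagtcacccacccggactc
B2M: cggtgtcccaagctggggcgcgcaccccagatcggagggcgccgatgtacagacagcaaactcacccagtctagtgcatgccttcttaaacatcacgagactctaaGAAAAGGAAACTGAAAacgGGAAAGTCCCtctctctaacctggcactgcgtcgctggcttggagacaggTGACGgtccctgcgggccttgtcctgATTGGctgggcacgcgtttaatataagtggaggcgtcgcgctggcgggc
The windows of HLA-B and HLA-C were identical at 226 of 254 aligned columns (89.0%). They hold the same X2 and CCAAT arrangement, beside log2 fold changes in C3 of −1.26 for HLA-B and −0.16 for HLA-C. A match describes these letters only.

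B2M (chromosome 15, 44711517 to 44718145), the invariant light chain, was at 305 and 284 CPM in C6, 281 and 310.0 CPM in C3, and 266 and 245 CPM in scramble. All 4 knockdown libraries lay above both scramble libraries, as for 15% of all genes. The log2 fold change was 0.20 ± 0.07 in C6 (adjusted p = 0.0205) and 0.21 ± 0.07 in C3 (adjusted p = 0.0336) by edgeR's test. B2M was thus among the genes that rose in both lines, 5.44% of all genes. With upper-quartile scaling neither value passed (0.14 in C6, adjusted p = 0.104, and 0.17 in C3, adjusted p = 0.0884), nor did either without scramble replicate 2 (0.15 in both, adjusted p = 0.19 in C6 and 0.264 in C3). The C6 value was also lost without C6 replicate 1 (0.15, adjusted p = 0.155), and the C3 value without C3 replicate 2 (0.14, adjusted p = 0.341) and with the shift of neighbouring genes removed (0.16, adjusted p = 0.102).

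PSMB8 and PSMB9 were, like HLA-B, lower in C3 and near scramble in C6. PSMB8 (chromosome 6, 32840717 to 32844679), the inducible subunit with chymotrypsin-like activity, was at 21.0 and 21.0 CPM in C6, 10.2 and 10.2 CPM in C3, and 22.7 and 23.1 CPM in scramble. C3 differed from scramble by −1.16 ± 0.10 on the log2 scale (adjusted p = 9.89e-07, edgeR) and C6 by −0.12 ± 0.10 (adjusted p = 0.32). PSMB9 (32854192 to 32859851), the inducible counterpart of PSMB6, was low throughout, with 112 and 124 counts in C6, 46 and 43 in C3, and 96 and 105 in scramble. On the CPM scale it stood at 4.25 and 4.46 in C6, 1.48 and 1.53 in C3, and 3.57 and 3.91 in scramble, a log2 fold change of −1.31 ± 0.24 in C3 (adjusted p = 0.000956, edgeR) and 0.22 ± 0.22 in C6 (adjusted p = 0.439). For both genes the C3 libraries lay below all others.

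The standard subunits that these replace gave other values. PSMB5, the partner of PSMB8, averaged 84.8 ± 0.518 CPM in C6, 91.9 ± 1.98 CPM in C3 and 85.8 ± 5.07 CPM in scramble (SD, n = 2). PSMB6, the partner of PSMB9, rose by 0.40 on the log2 scale in C3 (adjusted p = 0.00205, edgeR), and PSMB7 by 0.38 in C3 and 0.31 in C6. Per base of transcript, PSMB8 was 22.04% and 22.14% of PSMB5 in C6, 10.1% and 9.76% in C3, and 22.6% and 25.0% in scramble. PSMB9 was 7.93% and 8.87% of PSMB6 in C6, 2.09% and 2.01% in C3, and 5.94% and 7.58% in scramble. In both pairs the C3 libraries stood apart below the others. The third inducible catalytic subunit, PSMB10 on chromosome 16, rose by 0.74 ± 0.14 in C6 (adjusted p = 0.000452) and 0.47 ± 0.14 in C3 (adjusted p = 0.0225, edgeR), in contrast to PSMB8 and PSMB9. The C3 call was lost with DESeq2 and without C3 replicate 2, scramble replicate 1 or scramble replicate 2. Relative to PSMB7 it was at 15.6% and 13.2% in C6, 10.8% and 11.96% in C3, and 11.002% and 10.5% in scramble.

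**Figure D2:**
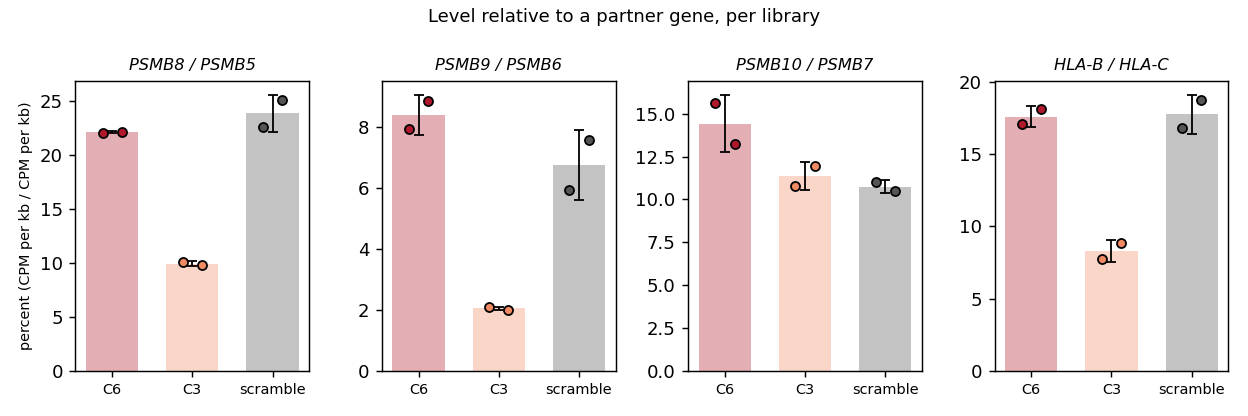
Level of one gene as a percentage of a partner gene, both as CPM per kilobase of transcript, in each library of C6, C3 and scramble (points) with the mean (bar) and SD (error bar, n = 2 each). PSMB8 relative to PSMB5, PSMB9 relative to PSMB6 and HLA-B relative to HLA-C are lower in both C3 libraries than in any other library, and PSMB10 relative to PSMB7 is not.

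TAP1 (chromosome 6, 32845209 to 32853704) forms the peptide transporter with TAP2 and was at 24.3 and 24.1 CPM in C6, 17.9 and 18.7 CPM in C3, and 24.3 and 22.3 CPM in scramble. The C3 libraries were the lowest, with a log2 fold change of −0.35 ± 0.10 (adjusted p = 0.0172, edgeR). That call was lost with DESeq2 (−0.35, adjusted p = 0.051), with the shift of neighbouring genes removed (−0.28, 0.0523), and without C3 replicate 1 (−0.31, 0.12), C3 replicate 2 (−0.38, 0.0629) or scramble replicate 1 (−0.28, 0.121). TAP2 (32821831 to 32838739) did not follow TAP1. It was at 51.3 and 57.4 CPM in C6, 56.2 and 56.8 CPM in C3, and 46.6 and 49.7 CPM in scramble. All 4 knockdown libraries lay above both scramble libraries, as for 15% of all genes. The rise passed in C3 (0.23 ± 0.08, adjusted p = 0.0448, edgeR) and not in C6 (0.17 ± 0.08, adjusted p = 0.0825). The C3 call of TAP2 was lost in 7 of 14 alternatives, among them leaving out any C3 or scramble library (0.18 to 0.28). Of its 150-base windows 31.8% occur in another gene model of GENCODE, so its reads could be shared.

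TAP1 and PSMB9 lie back to back with 487 bases between their annotated starts, and the window before each is shown. The pair fell by unequal amounts in C3, and any part of these sequences in that was not tested. The window of TAP1 (its start 1, chr6:32853705-32853954) is on the minus strand and that of PSMB9 (chr6:32853942-32854191) on the plus strand. Capitals mark the response element core, present here on the opposite strand as TTTC repeats, and the NF-kB consensus.
TAP1: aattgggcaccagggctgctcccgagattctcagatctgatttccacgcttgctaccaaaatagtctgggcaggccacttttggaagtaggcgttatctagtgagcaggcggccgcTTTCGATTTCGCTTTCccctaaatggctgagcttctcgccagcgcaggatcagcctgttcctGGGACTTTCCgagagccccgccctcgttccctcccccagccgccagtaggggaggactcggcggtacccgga
PSMB9: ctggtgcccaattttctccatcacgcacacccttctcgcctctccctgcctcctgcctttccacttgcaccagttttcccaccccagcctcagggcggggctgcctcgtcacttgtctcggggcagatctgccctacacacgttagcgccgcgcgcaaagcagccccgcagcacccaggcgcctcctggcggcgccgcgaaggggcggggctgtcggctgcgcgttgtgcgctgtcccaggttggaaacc
In the 250 bases before PSMB9 neither motif was found, nor the X2 and CCAAT arrangement. Both windows lie in the same 487 bases, so the matches marked for TAP1 also lie before PSMB9, farther than 250 bases from its start. Per base of transcript PSMB9 was 66.3% and 70.1% of TAP1 in C6, 31.3% and 30.9% in C3, and 55.5% and 66.4% in scramble. The C3 libraries again lay below the rest.

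TAPBP (33299694 to 33314078) stood at 49.5 and 53.2 CPM in C6, 33.4 and 31.0 CPM in C3, and 32.8 and 33.5 CPM in scramble. Only the C6 libraries were raised, by 0.63 ± 0.08 on the log2 scale (adjusted p = 1.68e-05, edgeR), while C3 was at −0.04 ± 0.08 (adjusted p = 0.759). TAPBP overlaps RGL2, a neighbour whose counts could be mixed with its own and which had 548 and 561 counts in C6, 503 and 460 in C3, and 491 and 536 in scramble. PSMB8 and TAP1 overlap the antisense gene PSMB8-AS1. The sources used here do not say whether the counting used strand, so reads of that gene and of its partners cannot be told apart.

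The direct comparison of C6 with C3 shows how far the lines differ. By edgeR's quasi-likelihood test 6 of the 9 genes differed, against 49.2% of all genes, and all 6 were higher in C6, against 25.1% of all genes. The log2 differences were 1.53 ± 0.24 for PSMB9 (adjusted p = 8.04e-05), 1.23 ± 0.10 for HLA-B (7.46e-08), 1.04 ± 0.10 for PSMB8 (8.42e-07), 0.94 ± 0.20 for NLRC5 (0.0011), 0.67 ± 0.08 for TAPBP (6.74e-06) and 0.40 ± 0.10 for TAP1 (0.00329). HLA-C was at 0.14 ± 0.06 (adjusted p = 0.0533), B2M at −0.003 ± 0.07 (adjusted p = 0.973) and TAP2 at −0.05 ± 0.08 (adjusted p = 0.592). The 6 differences passed the threshold with the same sign under all 14 alternatives. In the mean of both lines against scramble 7 of the 9 genes were called, against 32.9% of all genes, with 4 lower (16.3% of all genes) and 3 higher (16.6%). NLRC5 was the 1 of the 9 that was both called and at least 2-fold lower there, as 3.6% of all genes were. The falls were those of NLRC5 (−1.79 ± 0.15, adjusted p = 3.51e-07), HLA-B (−0.65 ± 0.08, 1.94e-05), PSMB8 (−0.64 ± 0.08, 3.68e-05) and PSMB9 (−0.54 ± 0.20, 0.0451), and the rises those of TAPBP (0.29), B2M (0.21) and TAP2 (0.20), by edgeR's test. The mean value of PSMB9 was lost in 10 of 14 alternatives, among them DESeq2 (−0.55, adjusted p = 0.147) and leaving out any 1 library (−0.61 to −0.48, adjusted p of 0.065 to 0.229). Only 4 of the 9 passed without C3 replicate 2, and likewise without scramble replicate 1 or scramble replicate 2. When the 4 knockdown libraries were taken as 1 group, so that their difference entered the spread, 0 of the 9 passed by edgeR's test, against 2 at an unadjusted p under 0.05. With both lines kept apart, DESeq2 called 5 of the 9 in the mean comparison.

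**Figure D3:**
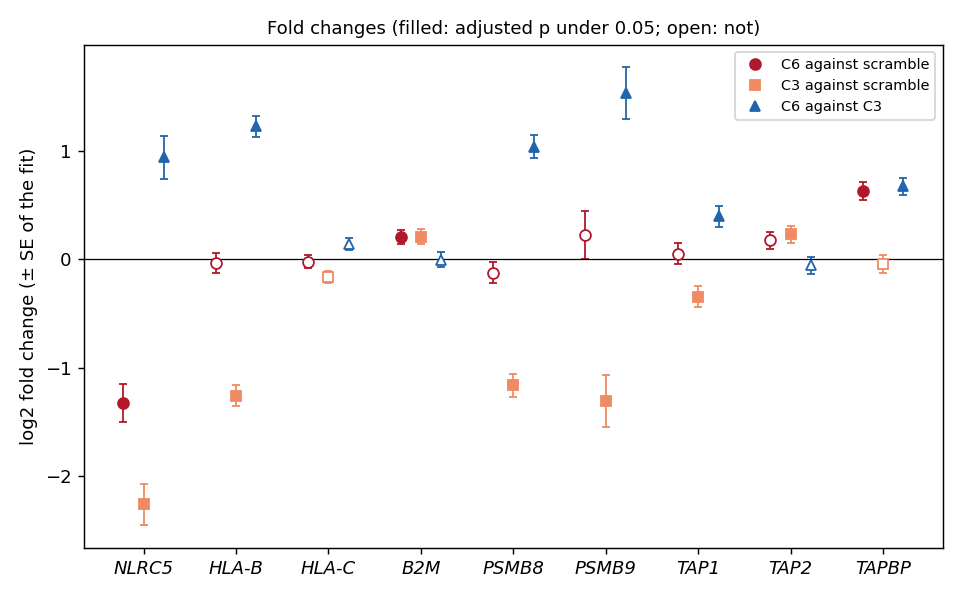
Log2 fold change of each of the 9 genes (points, with the SE of the fit as error bars) for C6 against scramble, C3 against scramble and C6 against C3. Filled points have an adjusted p under 0.05 by edgeR's quasi-likelihood test. NLRC5 lies below 0 in both lines, and HLA-B, PSMB8 and PSMB9 lie below −1 in C3 alone.

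Per base of transcript, B2M was the most abundant of the 8 genes with a matched transcript length (all but TAPBP), at 312 ± 16.1 CPM per kilobase in C6, 313 ± 22.04 in C3 and 271 ± 15.5 in scramble (SD, n = 2). HLA-C followed at 144, 131 and 147 CPM per kilobase in the same order of groups. In C6 and scramble the order went on with HLA-B, PSMB8, TAP2, TAP1, PSMB9 and NLRC5. In C3 TAP2 (13.8 CPM per kilobase) stood above HLA-B (10.9) and PSMB8 (8.26). No 2 neighbours in these orders overlapped between replicates, but the 2 transcripts of TAP2 differ in length, 2497 and 5684 bases, so its place depends on which is used. NLRC5 was at the foot in every group, at 0.838 CPM per kilobase in C6, 0.439 in C3 and 2.096 in scramble. Its place rests on 1 matched transcript of 6724 bases, where 23 are listed for the gene. Before dividing by length, NLRC5 averaged 14.1 CPM in scramble against 3.74 CPM for PSMB9.

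Of the 9 genes, 7 lie in the MHC on chromosome 6 between HLA-C and TAPBP. Of the 62 other tested genes in that stretch, 12 rose and 7 fell in C6 with a median log2 fold change of 0.07, and 6 rose and 3 fell in C3 with a median of −0.03. The running median of 51 neighbouring genes at HLA-B, PSMB8 and PSMB9 lay between −0.08 and 0.02 in C3. Against those neighbours HLA-B stood at −1.28, PSMB8 at −1.12 and PSMB9 at −1.23 in C3, and NLRC5 at −2.23 in C3 and −1.28 in C6. These values against scramble are close to those before the shift of neighbouring genes was subtracted. Between C6 and C3 the 62 other genes had a median of 0.15, with 17 higher and 9 lower in C6. The running median there was 0.21 at TAP1 and PSMB9 and 0.22 at PSMB8 and TAPBP. Subtracting it took TAP1 from 0.40 to 0.19, TAPBP from 0.67 to 0.46, PSMB8 from 1.04 to 0.82 and PSMB9 from 1.53 to 1.32. HLA-B was then at 1.20 and NLRC5 at 0.94.

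Of 14 other class I and class I-like chains tested, 6 were called between C6 and C3, against 49.2% of all genes. All 6 were higher in C6, against 25.1% of all genes. Against scramble, 5 of the 14 fell in C3 (HLA-E, MICA, ULBP2, RAET1L and MR1), against 11.9% of all genes. In C6, 5 rose (HLA-E, ULBP2, ULBP3, RAET1E and MR1), against 23.8% of all genes. The median of the list was −0.37 in C3 and 0.15 in C6. Over all genes the medians were 0.0013 in C3 and −0.01 in C6. HLA-G, at 0 in both C3 libraries, ranks lowest of the list there at its fitted value and at its floor alike, so the C3 median is the same for both. HLA-E, a ligand of the NK receptor CD94/NKG2A, was at 75.8 and 81.1 CPM in C6, 43.9 and 46.8 CPM in C3, and 64.3 and 58.8 CPM in scramble. MR1, which presents microbial metabolites to MAIT cells, was at 22.2 and 25.9 CPM in C6, 9.43 and 10.9 CPM in C3, and 17.8 and 19.3 CPM in scramble. The groups did not overlap for either gene, with C6 highest and C3 lowest. MICA, a stress ligand of NKG2D, fell by 0.62 in C3. Without C3 replicate 2 only 3 of the chains fell in C3, and only 1 rose in C6 without C6 replicate 2 or without scramble replicate 1.

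Of 13 genes that trim, load and turn over class I peptides, 3 rose and 2 fell in C6 (median 0.04), and 1 rose and 2 fell in C3 (median −0.04). All genes gave 23.8% higher and 22.8% lower in C6, and 12.4% higher and 11.9% lower in C3. Of each pair that fell, 1 passed without scramble replicate 2, and in C3 likewise with DESeq2 and without C3 replicate 2 or scramble replicate 1. ERAP1, the aminopeptidase that trims peptides in the endoplasmic reticulum, was the one that fell in both lines, by 0.38 in C6 and 0.76 in C3 (adjusted p = 0.00277 and 2.16e-05, edgeR). It was at 38.5 and 36.4 CPM in C6, 30.0 and 27.6 CPM in C3, and 45.1 and 52.7 CPM in scramble. The chaperone calreticulin (CALR) fell by 0.43 in C6 and was the 1 gene of the list that rose in C3, by 0.16 (adjusted p = 0.0424), a call lost with upper-quartile scaling, with the shift of neighbouring genes removed, with only C3 and scramble fitted and without any 1 library. BCAP31, which escorts class I molecules out of the endoplasmic reticulum, rose by 0.36 in C6. Of the other inducible proteasome genes 3 of 4 rose in C6, which were PSMB10 and the PA28 activator subunits PSME1 (0.30) and PSME2 (0.37), and 1 of 4, PSMB10, rose in C3. Among 11 further core particle subunits 5 rose in C6 and 7 in C3, with PSMA7 highest at 0.93 in C6 and 0.80 in C3. Those counts were 3 in C6 and 4 in C3 with upper-quartile scaling. They were 3 in C6 without C6 replicate 1, scramble replicate 1 or scramble replicate 2, and in C3 they were 4 without C3 replicate 1 or C3 replicate 2 and 3 without scramble replicate 2.

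**Figure D4:**
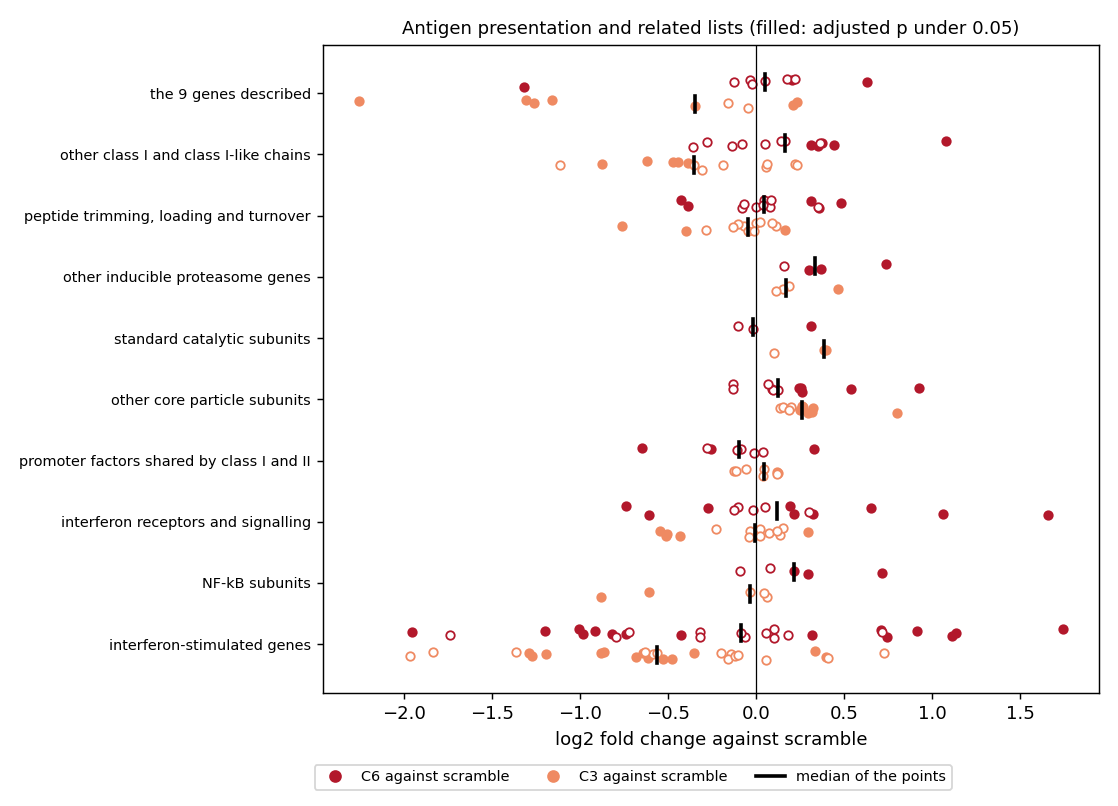
Log2 fold change against scramble of the genes of each list in C6 (dark red) and C3 (orange), each point a tested gene, filled where the adjusted p is under 0.05, with the median of the points as a black bar. HLA-G, at 0 in both C3 libraries, is not drawn. The 9 genes have a median of 0.05 in C6 and −0.35 in C3.

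The factors known to control class I genes were examined beside them, and their part in the changes above was not tested. Of the promoter-bound factors with which NLRC5 works, RFX5 fell by 0.25 and RFXAP by 0.65 in C6 and NFYA rose by 0.33 there, while in C3 all 8 tested lay between −0.12 and 0.12 (adjusted p of 0.25 or more, edgeR). NFYA was not called without scramble replicate 1, and 1 of the 2 that fell was lost without C6 replicate 1, C6 replicate 2 or scramble replicate 1. CIITA, the class II transactivator, had at most 5 counts in a library. Of 14 interferon receptor and signalling genes 6 rose and 3 fell in C6, and 1 rose and 4 fell in C3. Over all genes 23.8% rose and 22.8% fell in C6, and 12.4% rose and 11.9% fell in C3. Only 3 rose in C6 with upper-quartile scaling or without C6 replicate 2 or scramble replicate 2, only 1 fell there with the shift of neighbouring genes removed, and the rise in C3 was lost with that shift removed or without C3 replicate 2. IRF1, an interferon-induced activator of class I genes, was at 78.3 and 79.2 CPM in C6, 60.5 and 62.1 CPM in C3, and 49.4 and 50.6 CPM in scramble, and rose in both lines (0.65 ± 0.07 in C6, adjusted p = 2.01e-06, and 0.29 ± 0.07 in C3, adjusted p = 0.00585, edgeR). The interferon-gamma receptor chain IFNGR1 fell by 0.51 in C3 (adjusted p = 0.000226) and was at −0.10 in C6 (adjusted p = 0.306). IRF2 fell by 0.61 in C6 and 0.55 in C3, and STAT2 by 0.27 in C6 and 0.43 in C3.

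NF-kB subunits of the non-canonical branch were, like HLA-B, PSMB8 and PSMB9, lowest in C3. NFKB2 was at 17.8 and 18.8 CPM in C6, 7.52 and 8.75 CPM in C3, and 14.3 and 15.6 CPM in scramble. RELB was at 9.08 and 10.1 CPM in C6, 3.84 and 3.84 CPM in C3, and 5.28 and 6.44 CPM in scramble. Both fell in C3, by 0.88 (adjusted p = 8.66e-05) and 0.61 (adjusted p = 0.0193) by edgeR's test. Both rose in C6, by 0.29 (adjusted p = 0.0498) and 0.71 (adjusted p = 0.00233) by the same test. NFKB1 (0.08 in C6 and 0.06 in C3) and REL (−0.09 and 0.04) were called in neither line. Over all genes 23.8% rose in C6 and 11.9% fell in C3. With the canonical subunit RELA, 3 of 5 NF-kB subunits rose in C6 and 2 fell in C3, but only 1 rose in C6 without scramble replicate 2, with upper-quartile scaling or with the shift of neighbouring genes removed. In C3 only 1 fell with DESeq2, with that shift removed, or without C3 replicate 1, C3 replicate 2 or scramble replicate 2. Among 6 genes of the repressive complex PRC2, the catalytic subunit EZH2 rose by 0.59 in C6 and 0.54 in C3, and no other was called higher. EED (−0.31) and SUZ12 (−0.26) fell in C6, and RBBP4 (−0.18) fell in C3. The median of the 6 was −0.02 in C6 and 0.07 in C3. All genes gave 23.8% higher and 22.8% lower in C6, and 12.4% higher and 11.9% lower in C3.

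Interferon-stimulated genes moved both ways in C6, while in C3 more of them fell than rose. Of 27 tested, 7 rose and 8 fell in C6 and 2 rose and 11 fell in C3, with medians of −0.09 in C6 and −0.56 in C3. The shares over all genes were 23.8% higher and 22.8% lower in C6, and 12.4% higher and 11.9% lower in C3, with medians of −0.01 in C6 and 0.0013 in C3. The 2 rises in C3 became 1 with DESeq2, with upper-quartile scaling, with only C3 and scramble fitted, and without any 1 library other than scramble replicate 1. ISG15, a ubiquitin-like modifier, rose by 1.13 in C6 and was at 0.33 in C3 (adjusted p = 0.0351). IFITM3, a membrane protein that restricts viral entry, fell by 0.99 in C6 and 1.20 in C3, and UBE2L6, the conjugating enzyme of ISG15, fell by 1.96 in C6 and 1.27 in C3. Class II genes were largely silent, with HLA-DRA, HLA-DRB1, HLA-DPA1, HLA-DOA and HLA-DQA1 at 0 counts in every library.

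Among 10426 genes, those closest to the median profile of the 9 were KIFC2 (distance 0.0528), AIG1 (0.0891), CCDC90B (0.0944), MIB2 (0.102) and CDKN2AIP (0.106). The distance was Euclidean over the 6 libraries, on log2 CPM centred on scramble. The 9 did not share 1 profile, as their log2 fold changes in C3 ran from −2.26 for NLRC5 to 0.23 for TAP2. A gene close to the median is thus not close to each of the 9. The closest to NLRC5 alone were GULP1 (0.536), FHL1 (0.544) and SCEL (0.587). FHL1 was at 57.2 and 56.0 CPM in C6, 36.0 and 35.6 CPM in C3, and 150.2 and 147 CPM in scramble. Like NLRC5, it had its lowest level in C3 and its highest in scramble.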

How the data were processed

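RNA of SW620 lines was sequenced from stranded mRNA libraries as 150-base read pairs. The authors deposited 1 table of read counts per gene, whole numbers with no normalization per its values. Per the submitters' processing notes, Trimmomatic 0.38, HISAT2 2.1.0, StringTie 2.1.3b and DESeq2 were used with build hg38; the sources used here do not give how reads were assigned to genes, or whether by strand. The deposited counts were analysed with edgeR 4.0.16 in R 4.3.3 by its quasi-likelihood test, with TMM scaling, the default low-count filter, 3 groups of 2 libraries in 1 model with 3 residual degrees of freedom, and Benjamini-Hochberg adjustment over 13299 genes at 0.05. Fold changes are log2 with the SE of the fit. Of the listed genes, 19124 matched RefSeq names. Alternatives were other scalings and filters, DESeq2 1.42.0, a replicate block, subtraction of the running median of 51 neighbouring genes, knockdown libraries as 1 group, and each library left out. Transcript lengths came from GENCODE release 29 and upstream sequences from RefSeq (GRCh38.p14). The 9 genes, the gene lists and the tests were chosen with earlier results of these data known. Genes named outside the 9 were taken from those lists, and the most alike ones by smallest distance among genes averaging at least 5 CPM.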

Additional observations from a re-analysis of the deposited data

Results flagged for a closer look

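For 6 of the 9 genes the change against scramble differed between the lines by the test of the difference itself (edgeR's quasi-likelihood test, Benjamini-Hochberg adjustment over all genes), with C6 above C3 in each case. As log2 differences, C6 minus C3, PSMB9 was at 1.53 (adjusted p = 8.04e-05), HLA-B at 1.23 (7.46e-08), PSMB8 at 1.04 (8.42e-07), NLRC5 at 0.94 (0.0011), TAPBP at 0.67 (6.74e-06) and TAP1 at 0.40 (0.00329). For all 6 both C6 libraries lay above both C3 libraries, which adds no support, since the 6 were picked by this same difference. A difference between these lines was called for 49.2% of all genes, and 25.1% of all genes were called higher in C6. DKC1 RNA was lower in C6, at 70.3 and 67.1 CPM, than in C3, at 144 and 149 CPM. Each line is 1 stable line, so its shRNA, the degree of knockdown and the line itself cannot be told apart.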

How the results depend on the processing

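Among the 9 genes, 504 recomputed values kept their direction and side of the threshold in 440 cases, lost the call in 47, gained it in 7 and changed sign in 10. NLRC5 in both lines, HLA-B, PSMB8 and PSMB9 in C3, and TAPBP in C6 passed under all 14 alternatives. The count of the 9 genes called in the mean of both lines was 7, against 0 with the knockdown libraries as 1 group and 4 to 6 with 1 library left out. In C3 it was 7, against 4 to 7 with 1 library left out; in C6 it was 3, against 2 to 3, and between C6 and C3 it was 6 throughout. The sign changes were in uncalled comparisons. With upper-quartile scaling TAP1 in C6 was at −0.0092, and with the neighbour shift removed TAPBP in C3 was at 0.022 and B2M between C6 and C3 at 0.12. With 1 library left out, TAP1 in C6 ranged from −0.0093 to 0.12, HLA-B in C6 from −0.079 to 0.016, HLA-C in C6 from −0.049 to 0.0094, TAPBP in C3 from −0.098 to 0.011, TAP2 between C6 and C3 from −0.14 to 0.024, and B2M between C6 and C3 from −0.073 to 0.070. Their causes were not tested. Replicate numbers did not pair the samples (correlations of deviations 0.025, 0.064 and −0.047), and with the replicate block the counts were 6 in the mean, 5 in C3, 3 in C6 and 6 between C6 and C3; the block ended the calls of B2M (0.21, adjusted p = 0.0522) and TAP2 (0.23, 0.0565) in C3 and of PSMB9 in the mean (−0.54, 0.0582, edgeR). When 1 library of a group was left out, the lone one was assumed to vary like the other groups. At 43 to 124 counts per library, PSMB9 had the widest error of the 9 genes.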
